A study of Rattus norvegicus with 6 samples.

Results

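The mitochondrial chromosome of the rat was examined in RNA-seq data from 3 sciatic nerves that had been crushed and 3 contralateral nerves left intact. All genes that the deposited table places on MT were taken, 37 of the 30957 genes in all. They divide into 13 protein-coding genes, which carry gene symbols and protein names, and 24 genes that carry only an identifier (AY172581.1 to AY172581.24). Of these 24, the 2 genes longer than 500 bases (958 and 1571 bases) were taken as the rRNA genes and the 22 genes shorter than 100 bases (60 to 75 bases) as the tRNA genes. The table does not say which amino acid a tRNA gene serves, so these genes are called by their identifiers. Coordinates are those of the table, and the submitters' processing notes name the build Rnor_6.0.

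Both groups were nerves of adult male Sprague-Dawley rats with no transgene or drug. The crushed nerves had been compressed with forceps and were taken, according to the methods, as proximal stumps 4 days postinjury (dpi), whereas the labels give no time. The intact nerves came from the uninjured side. The methods describe depletion of rRNA followed by RNase R treatment, which degrades linear RNA, before library preparation, while the labels name neither step. Neither source says whether a sample was 1 rat or a pool, or whether same-numbered nerves came from 1 rat, so p-values measure the spread between these samples only.

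Mitochondria keep a small circular chromosome of their own. It encodes subunits of the respiratory chain and of ATP synthase, which make most of a cell's ATP, and the rRNAs and tRNAs with which the mitochondrial ribosome translates them. Both strands are transcribed as long precursors. The tRNAs lie between most of the other genes, and their excision releases the mRNAs and rRNAs. In peripheral nerve, mitochondria are needed by axons, which move them over long distances, and by Schwann cells during myelination.

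The libraries held between 24844371 and 27139360 counts on genes. The labelled tissue was checked against marker genes, and the defining markers of sciatic nerve were in part absent, so "nerve" below is the label of a library. Of 10 Schwann cell markers, 5 did not exceed 3 counts in any nerve, among them Mbp (0 to 1 counts), which encodes myelin basic protein, and Sox10 (0 to 1 counts), the transcription factor that defines the lineage. Pmp22 (821 to 968 counts) and Prx (590 to 690 counts) were detected. The macrophage markers Ptprc and Adgre1 had 0 counts in all 6 nerves, as did the fibroblast markers Dcn, Lum and Col1a2. Detected were Cd68 of macrophages (29 to 52 counts) and, of fibroblasts, Pdgfra (1114 to 1525 counts) and Col1a1 (293 to 537 counts). The proliferation marker Mki67 had between 37037 and 43837 counts. The summed level of the 10 Schwann cell markers was 62.6 to 67.0 normalized CPM (gene counts scaled to a common library size, here with TMM factors) in intact and 60.3 to 61.2 in crushed nerves. That of the 5 fibroblast markers was 63.6 to 70.7 and 62.5 to 69.1, and that of the 6 macrophage markers 3.79 to 5.45 and 3.92 to 5.89. For the 4 proliferation markers it was 2851 to 3066 and 2722 to 2855. The endothelial sum, 3.87 to 4.76 and 2.71 to 3.98, lacks Pecam1 of the 4 markers listed, which has no entry in the data. Some single markers moved with the groups. Col1a1, a collagen gene, fell from 19.5 to 20.4 normalized CPM in intact to 11.7 to 13.3 in crushed nerves (edgeR adjusted p = 0.000662). The endothelial receptor gene Tek had 3.03 to 4.04 and 1.79 to 2.62 (edgeR adjusted p = 0.0874). Prx, of myelinating Schwann cells, had 24.9 to 27.9 and 21.97 to 23.5, and neither Tek nor Prx overlapped. Other markers of the same cell types went the other way, with overlapping groups. Pdgfra had 44.0 to 50.4 normalized CPM in intact and 50.3 to 55.8 in crushed nerves, and endothelial Kdr 0.525 to 0.834 and 0.678 to 1.22. The part of cell composition in the results below was not tested, and in such bulk RNA fewer cells of a type and less RNA per cell cannot be told apart.

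In every nerve 1 gene dominated the counts on the mitochondrial chromosome. The counts come from RNA left after the rRNA depletion and RNase R treatment that the methods describe. How these steps acted on each gene and in each nerve was not tested, for the levels and fold changes here and below. Mt-co1, which encodes the catalytic subunit of cytochrome c oxidase, lies on MT from 5323 to 6867. It took 60.2%, 61.0% and 56.5% of the counts on the 13 protein-coding genes in the intact nerves 1, 2 and 3, against 60.5%, 60.5% and 58.4% in the crushed nerves 1, 2 and 3. These parts overlapped between the groups (exact permutation test, two-sided, p = 0.8). Per kilobase of gene, Mt-co1 reached 7145 ± 444 normalized CPM (SD, n = 3) in intact nerves, 3.20 times the level of the next gene, Mt-co2, at 2232 ± 216. Mt-atp8 (1295 ± 102), Mt-cox3 (1141 ± 127) and Mt-nd6 (1135 ± 79.1) followed, and neighbours in this order overlapped between nerves. Mt-cytb (936 ± 104), Mt-nd2 (778 ± 101), Mt-nd1 (720 ± 85.1) and Mt-nd4l (711 ± 58.7) came next and also overlapped with their neighbours. Below them lay Mt-nd5 (537 ± 58.5), Mt-atp6 (292 ± 34.6), Mt-nd4 (249 ± 51.6) and, lowest of the 13, Mt-nd3 (85.3 ± 7.70). The normalized CPM per kilobase of the highest gene was thus 83.8 times that of the lowest. Whether such values track RNA amounts between genes was not tested. This holds also for Mt-atp8 and Mt-atp6 and for Mt-nd4l and Mt-nd4, whose loci overlap. Of the 12 neighbouring pairs in the order, 6 overlapped between intact nerves. In crushed nerves 7 of the 13 genes had the same rank.

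**Figure D1:**
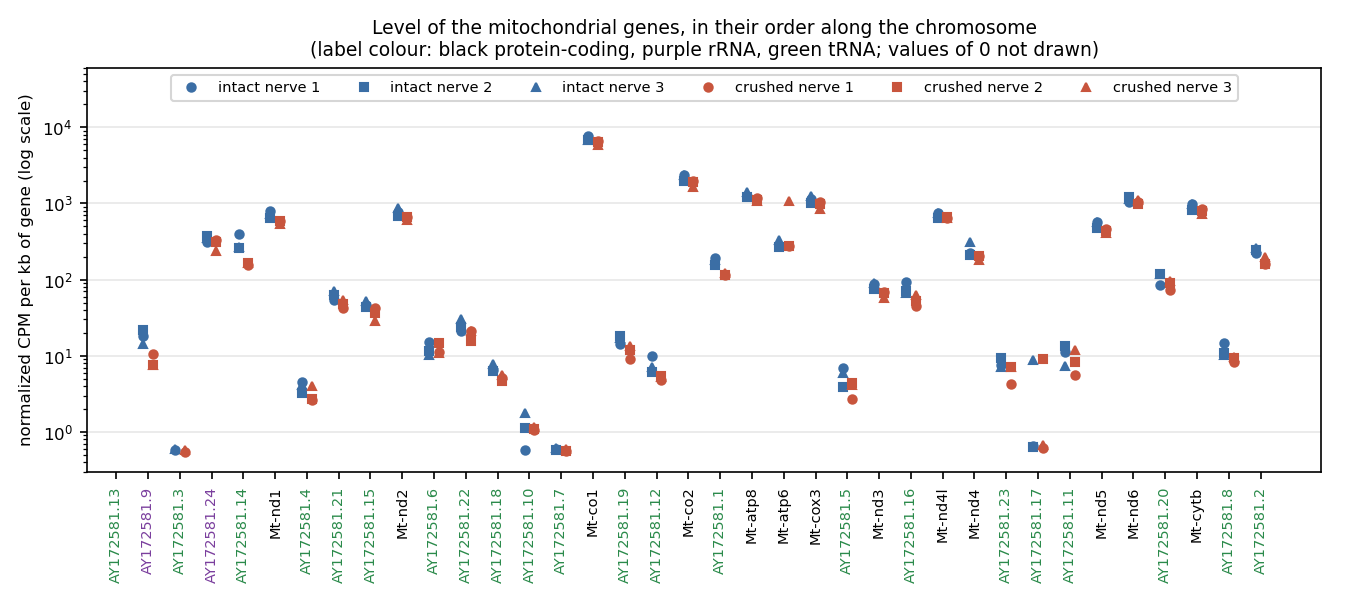
Level of each of the 37 mitochondrial genes in each of the 6 nerves, in their order along the chromosome (horizontal axis), as normalized CPM per kb of gene on a log scale (vertical axis). Mt-co1 stands at the top at 7145 in intact nerves on average, the tRNA genes span the range below, and Mt-atp6 has a single crushed nerve at 1072 above all its other nerves.

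The rRNA genes were low against the protein-coding genes. Per base, the protein-coding genes together had 7.47 ± 1.07 times the counts of the rRNA genes in intact and 7.85 ± 1.19 times in crushed nerves (SD, n = 3 nerves each). The methods name depletion of rRNA before sequencing, and whether it reached the mitochondrial rRNAs was not tested. The tRNA genes had fewer counts per base still. The protein-coding genes stood 31.0 ± 0.406 times above them per base in intact and 40.8 ± 4.70 times in crushed nerves. These loci are only 60 to 75 bases long. Whether their counts came from mature tRNAs or from the precursors was not tested, so they are not read as tRNA amounts.

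The mitochondrial share of all gene counts was 2.004%, 1.80% and 1.94% in the intact nerves 1, 2 and 3, against 1.77%, 1.70% and 1.61% in the crushed nerves 1, 2 and 3. Each intact nerve lay above each crushed nerve. The means were 1.92% ± 0.103 and 1.69% ± 0.0778 (SD, n = 3 nerves each), a ratio of 0.884 (two-sided exact permutation test, p = 0.1, the lowest value possible with 3 nerves against 3). Counting error was small beside the spread between nerves, with 95% Wilson intervals of at most 0.00543 percentage points on either side. These intervals, like the floors below, cover counting error only. The protein-coding genes made up between 96.3% and 97.3% of the mitochondrial counts and followed the same pattern. Their share was 1.94%, 1.73% and 1.88% in intact and 1.71%, 1.64% and 1.57% in crushed nerves (two-sided exact permutation test, p = 0.1).

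The tRNA share differed more between the groups. The 22 genes held 0.00834%, 0.00740% and 0.00786% of the counts in the intact nerves, against 0.00495%, 0.00529% and 0.00573% in the crushed nerves, a ratio of 0.677 with no overlap (exact permutation test, two-sided, p = 0.1). Relative to the protein-coding genes, there were 4.29, 4.27 and 4.18 tRNA counts per 1000 protein-coding counts in the intact nerves, against 2.89, 3.22 and 3.65 in the crushed nerves. This ratio, which no scaling between libraries can change, was 0.767 times as high in crushed nerves, again without overlap (exact permutation test, two-sided, p = 0.1). One gene, AY172581.14, held between 21.6% and 35.0% of the tRNA counts. Without it, the ratio of tRNA to protein-coding counts was 0.833 times as high in crushed nerves and the groups overlapped (two-sided exact permutation test, p = 0.2).

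The rRNA share did not separate the groups. It was 0.0505%, 0.0601% and 0.0558% in the intact nerves, against 0.0536%, 0.0501% and 0.0378% in the crushed nerves (exact permutation test, two-sided, p = 0.2). Relative to the protein-coding genes the rRNA counts were 26.0, 34.6 and 29.7 per 1000 in intact and 31.3, 30.5 and 24.0 in crushed nerves, with a ratio of 0.951 (exact permutation test, two-sided, p = 0.7). The direction of the last ratio turned without intact nerve 2 or without crushed nerve 3 (log2 ratio 0.0339 and 0.0488, against -0.0721 with all nerves).

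**Figure D2:**
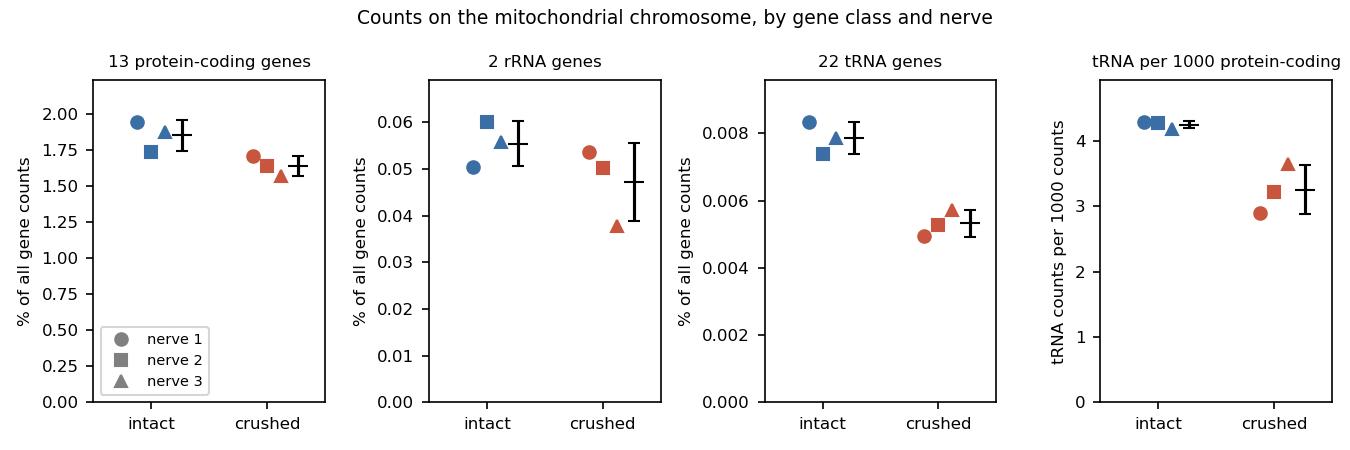
Share of all gene counts held by the 13 protein-coding, 2 rRNA and 22 tRNA genes, and tRNA counts per 1000 protein-coding counts (vertical axes), for each intact and crushed nerve, with mean ± SD in black. For the protein-coding and tRNA genes all 3 crushed nerves lie below all 3 intact nerves, whereas the rRNA shares overlap.

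Gene by gene, 30 of the 37 genes had enough counts for edgeR's expression filter, all 13 protein-coding genes, both rRNA genes and 15 of the 22 tRNA genes. The log2 fold changes of 29 of these 30 were negative in crushed nerves, with a median of -0.34, although 1 of the 29, AY172581.6, turned positive with library totals alone as scaling. Of the 12393 genes tested 50.6% were negative, with a median of -0.0017. In 20 of the 30 all crushed nerves lay below all intact nerves, and in none above, while 12.2% of all genes tested were separated in this way. In the quasi-likelihood test of edgeR, 6 of the 30 fell at an adjusted p under 0.05 and none rose, while DESeq2 called 12 as lower and none as higher. Of all genes tested 3.12% passed this limit in edgeR, 1.65% as lower and 1.47% as higher, and 4.09% passed it in DESeq2 in either direction. Of the 30, 19 had an unadjusted p under 0.05, with negative changes throughout, against 16.2% of all genes in either direction. The study's own threshold, an absolute log2 fold change above 1 and an unadjusted p under 0.001, was met by 1 of the 30, AY172581.9, which was lower, and by 0.282% of all genes, 0.0646% as lower. Without intact nerve 2, AY172581.9 no longer met it (log2 fold change -0.95) and AY172581.14 did (-1.03). These genes share their nerves and their precursors, so they are not independent observations.

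**Figure D3:**
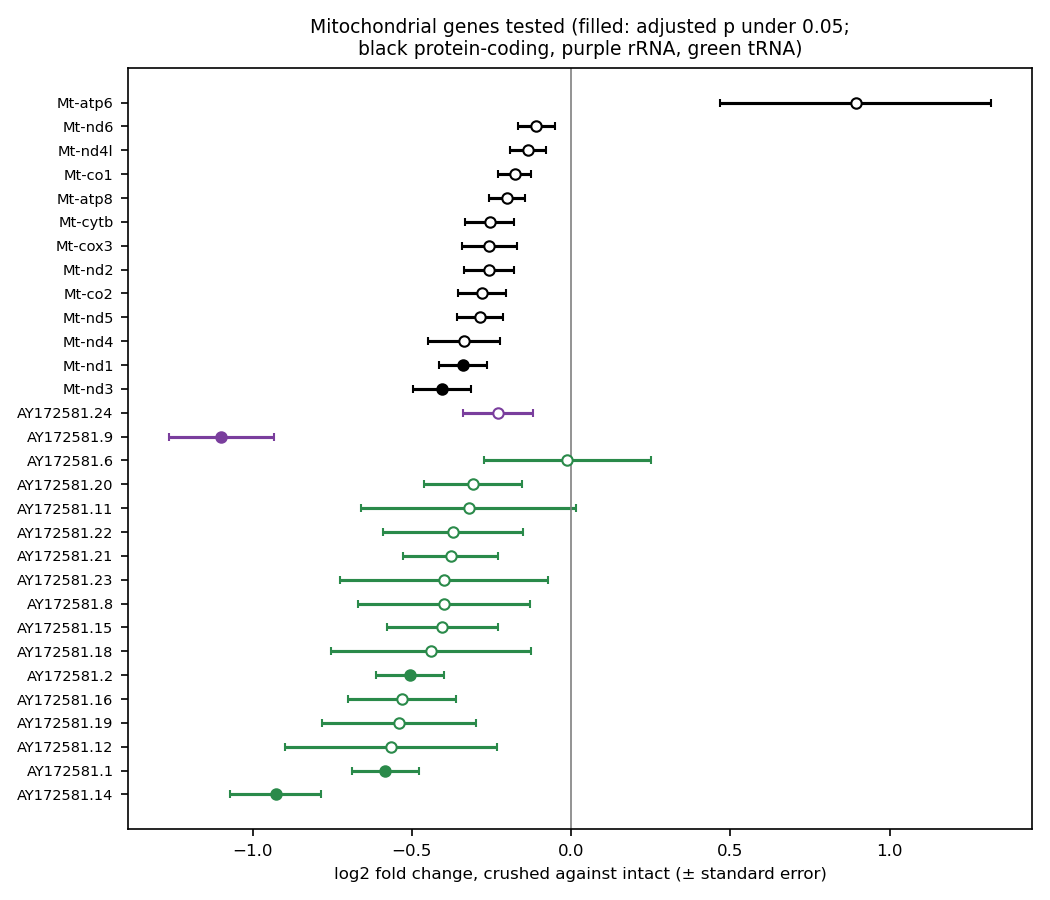
Log2 fold change in crushed against intact nerves (horizontal axis, ± standard error) of the 30 mitochondrial genes tested, grouped by class, with filled points for an adjusted p under 0.05. The points lie left of 0 for 29 genes, of which AY172581.6 turned with library totals as scaling, 6 points are filled, and Mt-atp6 stands apart at 0.89 with the widest error.

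The 7 genes of complex I, the NADH dehydrogenase through which electrons enter the chain, had negative log2 fold changes throughout. Of the 7, 2 fell at an adjusted p under 0.05 in edgeR. Over all genes tested, 50.6% were negative and 1.65% fell at this limit. Mt-nd1, a subunit of the membrane arm at MT 2740 to 3694, had 769, 606 and 687 normalized CPM in the intact nerves 1, 2 and 3, against 566, 556 and 507 in the crushed nerves 1, 2 and 3. The groups did not overlap, and Mt-nd1 fell by 0.34 on the log2 scale (standard error, SE, 0.0754, edgeR adjusted p = 0.0369, where adjustment is by Benjamini and Hochberg over all genes tested). Mt-nd3, the lowest of the 13, at MT 9451 to 9798, had 30.9, 26.6 and 31.5 normalized CPM in intact and 24.1, 23.2 and 19.8 in crushed nerves. It fell by 0.41 (SE 0.0918, edgeR adjusted p = 0.0400), also without overlap. Both calls were close to the limit. Without intact nerve 1 or 3, or without any 1 crushed nerve, Mt-nd1 had an adjusted p between 0.0502 and 0.157 and Mt-nd3 between 0.0730 and 0.148. With the replicate number as a block, Mt-nd3 was not called (edgeR adjusted p = 0.0700). With limma on log2(FPKM + 0.1), neither was called (adjusted p = 0.143 for Mt-nd1 and 0.0816 for Mt-nd3).

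The other complex I genes did not pass the adjusted limit in edgeR, whereas DESeq2 called Mt-nd5 (adjusted p = 0.00354) and Mt-nd2 (adjusted p = 0.0228). Mt-nd5 had 1031, 859 and 1056 normalized CPM in intact and 857, 798 and 759 in crushed nerves, a log2 fold change of -0.29 (edgeR adjusted p = 0.0657). Its highest crushed nerve lay just under its lowest intact nerve. The log2 fold change was -0.26 for Mt-nd2 (adjusted p = 0.125) and -0.34 for Mt-nd4 (adjusted p = 0.166), both without overlap. For Mt-nd2 the lowest intact nerve, at 701 normalized CPM, lay just above the highest crushed nerve, at 700. Without intact nerve 3 the log2 fold change of Mt-nd4 was -0.15. Without intact nerve 2, Mt-nd5 and Mt-nd2 were called (edgeR adjusted p = 0.00836 and 0.0202). Mt-nd4l, whose reading frame overlaps that of Mt-nd4 by 7 bases, differed by -0.13 on that scale (adjusted p = 0.272). Mt-nd6, the only protein-coding gene on the opposite strand, had 544, 625 and 599 normalized CPM in intact and 549, 513 and 577 in crushed nerves. Its log2 fold change of -0.11 was the smallest of the protein-coding genes in size (SE 0.0575, adjusted p = 0.386). The groups overlapped for both Mt-nd4l and Mt-nd6. The last 23 bases of Mt-nd5 lie within Mt-nd6, and without a stated strand setting reads of both genes cannot be told apart there. Over the rest of Mt-nd6, counts may likewise include RNA of the other strand, so its level and change carry this limit.

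Mt-cytb, the cytochrome b subunit of complex III, at MT 14136 to 15278, had 1136, 933 and 1140 normalized CPM in intact and 961, 903 and 824 in crushed nerves. Crushed nerve 1 lay above intact nerve 2, so the groups overlapped. The log2 fold change was -0.26 (SE 0.0773, edgeR adjusted p = 0.120). Without intact nerve 2 the adjusted p was 0.0238, and DESeq2 called Mt-cytb with all nerves (adjusted p = 0.0221).

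The 3 genes of complex IV, which passes electrons to oxygen, held 72.2% ± 1.60 of the protein-coding counts in intact and 72.1% ± 1.96 in crushed nerves (SD, n = 3 nerves each). None passed the adjusted limit in edgeR with all nerves, whereas DESeq2 called Mt-co2 (adjusted p = 0.00763) and Mt-cox3 (adjusted p = 0.0412). Mt-co1 had 11831, 10639 and 10646 normalized CPM in intact and 10279, 9903 and 9111 in crushed nerves. The groups did not overlap, with a log2 fold change of -0.18 (SE 0.0525, edgeR adjusted p = 0.113), and with the replicate number as a block Mt-co1 was called (edgeR adjusted p = 0.0413). Mt-co2, which receives the electrons from cytochrome c, had 1602, 1357 and 1621 normalized CPM in intact and 1350, 1296 and 1127 in crushed nerves. It changed by -0.28 on the log2 scale (adjusted p = 0.0877), and intact nerve 2 lay only slightly above crushed nerve 1. Without that intact nerve the adjusted p was 0.0359. For Mt-cox3 the log2 fold change was -0.26 (adjusted p = 0.166), with overlapping groups.

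The genes of ATP synthase, Mt-atp8 and Mt-atp6, are neighbours whose loci overlap by 43 bases, and they differed in pattern. Mt-atp8, at MT 7758 to 7961, had 254, 251 and 288 normalized CPM in intact and 239, 229 and 221 in crushed nerves, a log2 fold change of -0.20 without overlap (SE 0.0569, edgeR adjusted p = 0.0954, DESeq2 adjusted p = 0.0362). Mt-atp6, at MT 7919 to 8599, had 4831, 4746 and 5576 counts in the intact nerves, against 5183, 5100 and 18292 in the crushed nerves. Crushed nerve 3 was 3.75 times as high in normalized CPM as the mean of the other 5 nerves, which lay between 180 and 225 normalized CPM. The log2 fold change of Mt-atp6, 0.89, rested on this nerve (SE 0.425, edgeR adjusted p = 0.339) and was -0.07 without it (adjusted p = 0.755). Neither neighbour was high in that nerve, since Mt-atp8 and Mt-cox3, which begins where Mt-atp6 ends, both had their lowest level there. Per base, Mt-atp6 had 0.215 to 0.246 times the counts of Mt-atp8 in 5 nerves and 0.991 times in crushed nerve 3.

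**Figure D4:**
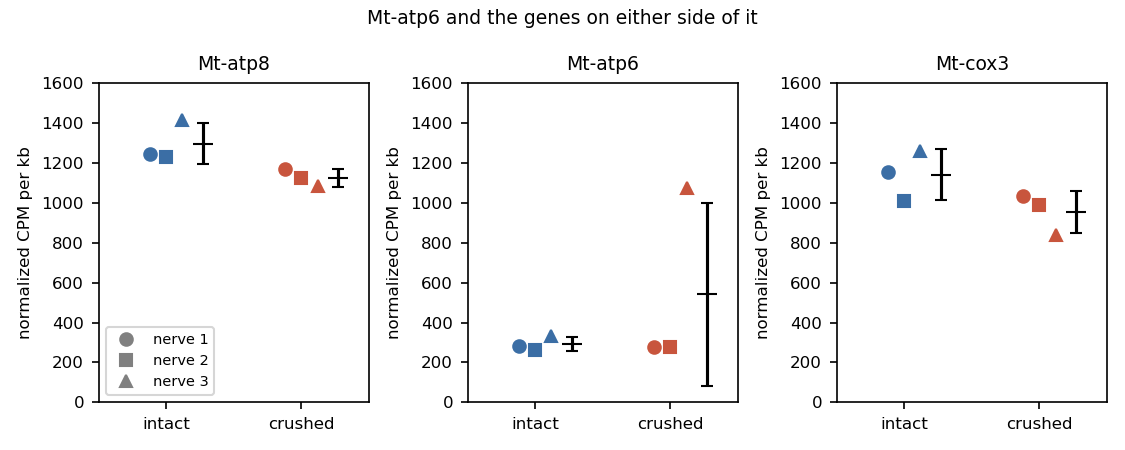
Normalized CPM per kb (vertical axis) of Mt-atp8, Mt-atp6 and Mt-cox3 in each intact and crushed nerve, with mean ± SD in black. Crushed nerve 3 stands at 1072 for Mt-atp6, against 264 to 331 in the other nerves, while it is the lowest nerve for both neighbours.

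Crushed nerve 3 was also the lowest of the 6 nerves in 11 of the 13 protein-coding genes. Among the 15 tRNA genes tested the lowest nerve was crushed nerve 1 in 9 and crushed nerve 3 in 1. The protein-coding share without crushed nerve 3 differed by -0.14 on the log2 scale, against -0.17 with it, and the tRNA share by -0.62 against -0.56.

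The 2 rRNA genes behaved unequally. AY172581.9, at MT 68 to 1025, is the shorter and by its length the gene of the small-subunit rRNA, and AY172581.24, at MT 1094 to 2664, is the longer and by its length that of the large subunit. AY172581.9 had 442, 548 and 344 counts in the intact nerves, against 273, 194 and 180 in the crushed nerves, or 17.5, 20.8 and 13.9 against 9.996, 7.15 and 7.18 normalized CPM. All crushed nerves lay below all intact nerves, and the gene fell by 1.10 on the log2 scale (SE 0.164, edgeR adjusted p = 0.00381). AY172581.24 had 493, 584 and 546 normalized CPM in intact and 523, 492 and 368 in crushed nerves, a log2 fold change of -0.23 with overlapping groups (SE 0.109, adjusted p = 0.334). Per base, AY172581.24 had 17.2, 17.1 and 24.0 times the counts of AY172581.9 in the intact nerves, against 31.9, 42.0 and 31.3 times in the crushed nerves. This ratio within each library did not overlap between the groups (exact permutation test, two-sided, p = 0.1). The methods name depletion of rRNA and RNase R treatment. Whether these steps acted unequally on the 2 genes or between nerves was not tested, so such a difference and a change in the RNA cannot be told apart.

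**Figure D5:**
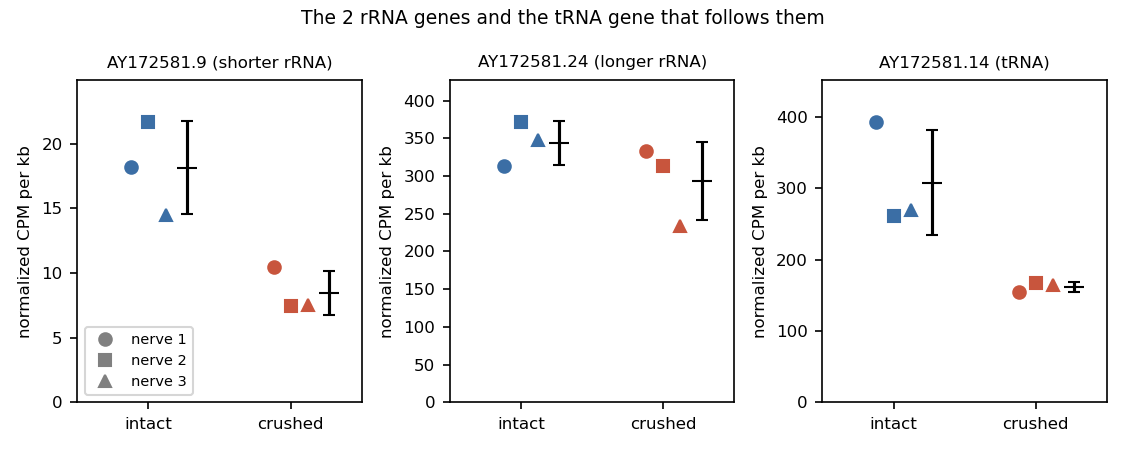
Normalized CPM per kb (vertical axis) of the rRNA genes AY172581.9 and AY172581.24 and of the tRNA gene AY172581.14 in each intact and crushed nerve, with mean ± SD in black. Crushed nerves lie below all intact nerves for AY172581.9 and AY172581.14 and overlap with them for AY172581.24.

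The 15 tRNA genes tested had negative log2 fold changes from -0.93 to -0.01, with a median of -0.40, against -0.26 for the 13 protein-coding genes. AY172581.6, the gene closest to 0, was the one that turned with library totals. In 11 of the 15 the crushed nerves all lay below the intact nerves in normalized CPM, which held for 12.2% of all genes tested. Among these 11 were AY172581.8, AY172581.12, AY172581.18 and AY172581.23, which had few counts. The counts of AY172581.15 and AY172581.23 overlapped between the groups before scaling, and those of AY172581.8 were tied at 17. Mitochondrial tRNAs carry amino acids to the mitochondrial ribosome, and each is cut at both ends from the precursor.

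Of the 15, 3 fell at an adjusted p under 0.05, against 1.65% of all genes tested, and they were also the 3 with the most counts. AY172581.14, at MT 2665 to 2739, lies directly between the longer rRNA gene and Mt-nd1 with no base between them. It had 746, 517 and 502 counts in intact and 316, 340 and 309 in crushed nerves, or 29.5, 19.6 and 20.3 against 11.6, 12.5 and 12.3 normalized CPM. The gene fell by 0.93 on the log2 scale (SE 0.143, edgeR adjusted p = 0.00469), and intact nerve 1 stood above the other intact nerves. Against its neighbour Mt-nd1, it had 0.488, 0.411 and 0.376 times the counts per base in intact and 0.260, 0.287 and 0.310 times in crushed nerves (exact permutation test, two-sided, p = 0.1).

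AY172581.1, at MT 7693 to 7756 between Mt-co2 and Mt-atp8, had 312, 264 and 288 counts in intact and 203, 199 and 198 in crushed nerves. It fell by 0.58 on the log2 scale (SE 0.104, edgeR adjusted p = 0.0123), and was not called without crushed nerve 1 or 2 (adjusted p = 0.0634 and 0.0649). AY172581.2, the last gene of the chromosome in the table, at MT 15348 to 15415, had 388, 445 and 436 counts in intact and 294, 292 and 340 in crushed nerves. It fell by 0.51 (SE 0.106, edgeR adjusted p = 0.0290), with no overlap in either gene. The adjusted p of AY172581.2 was 0.0894 without intact nerve 2, 0.0854 without intact nerve 3, 0.131 without crushed nerve 1 and 0.125 without crushed nerve 2.

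The other 12 tRNA genes tested had log2 fold changes from -0.57 to -0.01 and adjusted p-values from 0.143 to 0.988 in edgeR's test. Among them AY172581.16, between Mt-nd3 and Mt-nd4l, had 162, 126 and 112 counts in intact and 84, 97 and 106 in crushed nerves, a log2 fold change of -0.53 without overlap (adjusted p = 0.143). AY172581.20, between Mt-nd6 and Mt-cytb, had 147, 219 and 200 counts in intact and 139, 169 and 166 in crushed nerves, with overlap and a log2 fold change of -0.31 (adjusted p = 0.362). AY172581.21 had 96, 118 and 124 counts in intact and 83, 92 and 95 in crushed nerves, a log2 fold change of -0.38 without overlap (adjusted p = 0.240). AY172581.15 and AY172581.19 were also separated, with log2 fold changes of -0.40 and -0.54, whereas AY172581.22 (-0.37) overlapped. The remaining 6, AY172581.6, AY172581.8, AY172581.11, AY172581.12, AY172581.18 and AY172581.23, had between 8 and 26 counts per nerve. Their log2 fold changes had SEs between 0.262 and 0.339, larger than those of the most counted genes.

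The counts were concentrated in few tRNA genes. The 6 most counted, AY172581.14, AY172581.2, AY172581.1, AY172581.20, AY172581.16 and AY172581.21, held between 83.1% and 86.9% of all tRNA counts in a nerve. The 7 tRNA genes that did not pass the filter had at most 15 counts in any nerve. Of these, 4 never exceeded 3 counts, namely AY172581.3, AY172581.7, AY172581.10 and AY172581.13, and AY172581.13, the first gene of the chromosome, had 0 counts in each nerve. A floor of 3 counts corresponded to between 0.110 and 0.121 normalized CPM, so levels under it could not be told from 0. AY172581.4 and AY172581.5 had between 5 and 12 counts. No difference was detectable in these genes at this depth.

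The mitochondrial genes were compared with nuclear genes that serve the same organelle. Of 30 nuclear genes tested for mitochondrial transcription and RNA processing, none passed an adjusted p under 0.05 in edgeR, DESeq2 or limma. At an unadjusted p under 0.05, which 16.2% of all genes tested had, 5 were higher and 1 lower. The median log2 fold change was 0.08, with 5 of the 30 negative. In this list the log2 fold change of the polymerase gene Polrmt was 0.02 (edgeR adjusted p = 0.940), Tfam, which packs the chromosome and starts transcription, was at 0.14 (adjusted p = 0.370), and Lrpprc, which stabilizes mitochondrial mRNAs, at 0.10 (adjusted p = 0.404). Elac2, which cuts the 3′ ends of tRNAs, was at 0.09 (adjusted p = 0.427) and Trmt10c, a subunit of the enzyme that cuts the 5′ ends, at 0.03 (adjusted p = 0.895). Supv3l1, a helicase of mitochondrial RNA decay, had 38.9 ± 0.508 normalized CPM in intact and 43.8 ± 0.601 in crushed nerves (SD, n = 3), a log2 fold change of 0.17 without overlap (edgeR adjusted p = 0.118). Of the 30 genes, 7 were separated upwards, Elac2 and Supv3l1 among them, and 1 downwards. Of all genes tested 10.8% were separated upwards and 12.2% downwards.

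The other lists of nuclear genes for mitochondrial proteins also had 0 calls in edgeR and limma, and DESeq2 called 1 gene, a respiratory chain subunit. The 20 genes of mitochondrial DNA replication and maintenance showed a median change of 0.01 on the log2 scale, with 9 negative and 1 lower at an unadjusted p under 0.05. Among them Ppargc1a, the coactivator of mitochondrial biogenesis, had 0.933 ± 0.414 normalized CPM in intact and 0.413 ± 0.185 in crushed nerves (SD, n = 3), a log2 fold change of -1.16 with overlapping groups (edgeR adjusted p = 0.191). The 22 mitochondrial aminoacyl-tRNA synthetases had a median of -0.0030, with 13 of 22 negative and 1 lower at that unadjusted p. The 71 nuclear subunits of the respiratory chain had a median of -0.03, with 43 of 71 negative. In this list 11 were separated downwards and 5 upwards, and at that unadjusted p 10 were lower and 3 higher. Of all genes tested 50.6% were negative, 12.2% were separated downwards and 10.8% upwards, and 16.2% had that unadjusted p. The 70 mitochondrial ribosomal proteins also had a median of -0.03, with 43 of 70 negative, 4 lower and 4 higher at that unadjusted p. Among the 13 mitochondrial subunit genes the median was -0.26, 12 were negative and 8 were separated downwards, against 12.2% of all genes tested. Of 271 short structural RNA genes of the nucleus tested, such as snoRNAs and 7SK, 75 were negative, with a median of 0.15. In edgeR 5 rose at an adjusted p under 0.05, or 1.85%, near the 1.47% of all genes tested. DESeq2 called 4 and limma 14 in either direction, where 4.09% and 1.95% of all genes tested passed. Of the 271, 44 were separated upwards and 7 downwards, against 10.8% and 12.2% of all genes tested. Many of the 271 have near-identical copies whose reads could be split.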

How the data were processed

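RNA of 3 crushed and 3 intact rat nerves was sequenced by the study. The authors deposited 1 table with raw counts per Ensembl gene and nerve. The FPKM values deposited by the authors are counts per kilobase scaled by the total of gene counts, and for 36 of the 37 mitochondrial genes the length they imply was within 0.1 base of the locus length. The submitters' processing notes name HISAT2, StringTie 1.3.0 and Rnor_6.0. The counting rule, strand setting and handling of reads that also match nuclear copies of mitochondrial DNA are not given in the sources used here. The 12 value columns were matched to nerves by sample title, and groups come from the labels.

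All genes were fitted together with edgeR 4.0.16 (limma 3.58.1, R 4.3.3), using TMM factors, the expression filter and quasi-likelihood tests without a block, with p-values adjusted over 12393 genes. The standard error was taken from the test statistic. Shares were compared by exact permutation of the nerves. Alternatives were a replicate block, DESeq2 1.42.0, no filter, limma on log2(FPKM + 0.1), scaling without mitochondrial genes, no TMM factors, FPKM sums and each nerve left out. Those without Mt-atp6 or AY172581.14 were chosen after seeing the data. Members, lists and tests were chosen with earlier results of these data known. All protein-coding and rRNA genes, and the tRNA genes past the filter, are named. Nuclear lists were written by hand, and of their genes the few named were chosen for their roles after their values were seen.

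Totals lay between 24844371 and 27139360 counts. Nerves of 1 group differed by more than sampling noise (chi-square per degree of freedom 3.27 to 11.8), so each counts as 1 sample. In counts simulated for this comparison over 12303 genes, 76 of 99 genes changed by 0.5 on the log2 scale and 98 of 99 changed by 1.5 passed the adjusted limit, as did 27 of 12105 unchanged genes.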

Additional observations from a re-analysis of the deposited data

How the results depend on the processing

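Of the 30 mitochondrial genes tested, 28 kept a negative log2 fold change in all 12 alternatives, and AY172581.9 and AY172581.14 passed an adjusted p under 0.05 in all 12. The number called, 6, was 12 with DESeq2, between 2 and 9 with 1 nerve left out, 4 with limma on FPKM (Mt-nd1 and Mt-nd3 lost) and 6 with the replicate block, with no filter and with either other scaling. It was 3 without intact nerve 3, and 2 without crushed nerve 1 or 2. With 2 nerves in a group the test has fewer samples. Over all genes tested, 387 passed this limit, 507 with DESeq2, 242 with limma, and 179 and 183 without crushed nerve 1 or 2. The study's threshold was met by 1 to 2 members with 1 nerve left out, 2 without intact nerve 3, and by 1 in the other alternatives, which was AY172581.14 (-1.03) in place of AY172581.9 (-0.946) without intact nerve 2 and AY172581.9 otherwise. AY172581.6, never called, lay between -0.159 and 0.158 with 1 nerve left out and turned to 0.00730 with limma, 0.00544 with library totals, and 0.158, 0.0532 and 0.0589 without intact nerve 1, crushed nerve 1 and crushed nerve 3. Mt-atp6 lay between -0.0727 (without crushed nerve 3) and 1.21 with 1 nerve left out. For all of these the cause was not tested.

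The log2 ratio of the mitochondrial share, -0.177, lay between -0.221 and -0.143 with 1 nerve left out, and that of the tRNA share, -0.564, between -0.618 and -0.513, or -0.444 without AY172581.14. The tRNA to protein-coding log2 ratio, -0.390, was -0.269 without that gene. The rRNA to protein-coding log2 ratio ran from -0.174 to 0.0488, with the sign turned without intact nerve 2 (0.0339) or crushed nerve 3 (0.0488). FPKM sums moved none of the 6 shares and ratios by more than their spread.

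With the replicate block (paired analysis), 6 genes were called, 5 of the 6 above, with Mt-co1 (edgeR adjusted p = 0.0413) in place of Mt-nd3 (0.0700). Deviations of nerves with the same number had correlations from -0.0148 to 0.0756 across genes, so the numbers are not shown to pair the nerves. Within pairs the mitochondrial share differed by the same -0.177 (exact permutation test, p = 0.25, the smallest that 3 pairs allow).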

Other observations

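AY172581.17, a tRNA gene between AY172581.23 and AY172581.11, was counted 1, 1 and 13 times in intact nerves 1, 2 and 3, against 1, 15 and 1 in the crushed nerves 1, 2 and 3. The 2 nerves with more than 1 count lay in different groups, and no nerve had a value between. AY172581.7, the gene before Mt-co1, had exactly 1 count in each of the 6 nerves.

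Neighbouring genes whose loci overlap differed in counts per base, and whether their RNA amounts differed was not tested. Mt-nd4 had 0.302, 0.331 and 0.417 times the counts per base of Mt-nd4l in the intact nerves, against 0.317, 0.310 and 0.286 times in the crushed nerves (exact permutation test, two-sided, p = 0.3). Mt-nd6, which lies on the strand opposite to Mt-nd5, had 1.86, 2.56 and 1.999 times the counts per base of Mt-nd5 in intact and 2.26, 2.27 and 2.68 times in crushed nerves (exact permutation test, two-sided, p = 0.4).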
